A study of Mus musculus with 23 samples.

Results

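The cornified envelope genes of mouse ear skin were followed from the unwounded ear to 24 h after an ear punch, in 2 genotypes. A gene was taken as a member when its row on the array carried a single symbol that starts with Sprr, Lce1 or Lce3, or was one of a list of named envelope precursors, transglutaminases, plakins and processing enzymes. This gave 48 members of 19938 named genes, among them 2 Sprr1, 9 Sprr2, 13 Lce1 and 5 Lce3 genes. Filaggrin itself (Flg) was on the list but had no row with a single symbol, and it was not analysed here. The values were log2 RMA levels from Affymetrix Mouse Gene 1.0 ST arrays, so a difference of 1 is a doubling or a halving, and levels of different genes are not comparable because their probes differ.

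All 23 arrays were from ear pinna of female mice aged 4 weeks. The mutant mice were homozygous for the cub allele (Rhbdf2cub/cub, strain B6.Cg-Rhbdf2cub/J) and are called cub, and the others were Rhbdf2+/+ mice of strain C57BL/6J, called wild type. Each genotype was of its own strain, so genotype and strain cannot be told apart in a comparison of cub and wild type. Unwounded ears stood for 0 h. Wounded ears had a 2-mm hole, and a 3-mm biopsy punch took the 1-mm rim of tissue around it after 15 min, 2 h or 24 h. The size of the piece taken at 0 h was not given in the sources used here, so the rim and the wound cannot be told apart in a comparison with 0 h, and 24 h was also set against 15 min, where both samples were rims. There were 3 arrays in each group, except 2 in cub at 15 min. The labels call them biological replicates, so p-values measure the spread between these arrays. Rhbdf2 encodes iRhom2, which governs the maturation of the protease ADAM17. Where its probes lie relative to the mutation was not looked up, and its level (group means of 9.11 in cub and 8.70 in wild type at 0 h) therefore does not check the labels.

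The cornified envelope is the protein shell that replaces the plasma membrane of a keratinocyte as it becomes a dead squame of the skin surface. Transglutaminases cross-link its precursors: involucrin and the plakins form a first scaffold, and loricrin, small proline-rich proteins (Sprr) and late cornified envelope proteins (Lce) are then added to it. Most precursors are encoded side by side in the epidermal differentiation complex, which lies on mouse chromosome 3. Loricrin, filaggrin and the Lce1 genes belong to normal surface skin, whereas Sprr1 and Sprr2 genes, and LCE3 genes in human skin, are known as genes of wounded or inflamed epidermis. Of the 48 members, 39 lay on chromosome 3 and 9 elsewhere.

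The promoters below belong to members whose levels moved apart after wounding and are shown because the motif content of their windows differed by family. They are the 210 bases just before the transcription start, 5′ to 3′ on the gene's strand, from RefSeq on GRCm38.p6. Capitals mark matches to the binding site of the transcription factor AP-1 (TGANTCA) and to the TATA box (TATAAA), on either strand. Sprr2d (chr3:92338930-92339139, plus strand), Sprr2e (chr3:92351933-92352142, plus) and Sprr2k (chr3:92432372-92432581, plus) are copies of 1 family, and the 24 h changes of Sprr2k were far smaller than those of the other two. Sprr1a (chr3:92485882-92486091, minus) stands for the Sprr1 pair, and loricrin, Lor (chr3:92083143-92083352, minus), for a member that fell. Lce3c (chr3:92944276-92944485, plus) and Lce3e (chr3:92966851-92967060, plus) rose, and Lce1c (chr3:92679037-92679246, plus) did not pass at 24 h against 0 h.
Sprr2d: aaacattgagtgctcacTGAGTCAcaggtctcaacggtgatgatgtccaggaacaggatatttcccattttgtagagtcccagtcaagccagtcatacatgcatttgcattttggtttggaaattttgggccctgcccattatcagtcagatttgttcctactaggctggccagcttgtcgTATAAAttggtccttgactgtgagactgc
Sprr2e: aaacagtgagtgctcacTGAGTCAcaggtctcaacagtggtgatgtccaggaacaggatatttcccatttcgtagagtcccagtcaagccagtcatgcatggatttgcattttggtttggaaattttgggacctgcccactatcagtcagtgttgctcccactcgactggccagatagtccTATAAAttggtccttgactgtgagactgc
Sprr2k: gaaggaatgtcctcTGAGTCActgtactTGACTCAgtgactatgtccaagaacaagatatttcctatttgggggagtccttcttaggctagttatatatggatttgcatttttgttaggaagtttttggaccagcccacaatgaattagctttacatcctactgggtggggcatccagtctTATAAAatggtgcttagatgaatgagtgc
Sprr1a: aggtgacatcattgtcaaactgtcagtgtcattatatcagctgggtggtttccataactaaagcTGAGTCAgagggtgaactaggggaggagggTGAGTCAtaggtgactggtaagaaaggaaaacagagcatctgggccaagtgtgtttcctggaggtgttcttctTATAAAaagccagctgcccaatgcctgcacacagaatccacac
Lor: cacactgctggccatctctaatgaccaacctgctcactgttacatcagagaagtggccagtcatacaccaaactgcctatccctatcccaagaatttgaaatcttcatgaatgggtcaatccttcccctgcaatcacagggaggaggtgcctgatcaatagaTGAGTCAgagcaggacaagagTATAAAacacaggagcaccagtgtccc
Lce3c: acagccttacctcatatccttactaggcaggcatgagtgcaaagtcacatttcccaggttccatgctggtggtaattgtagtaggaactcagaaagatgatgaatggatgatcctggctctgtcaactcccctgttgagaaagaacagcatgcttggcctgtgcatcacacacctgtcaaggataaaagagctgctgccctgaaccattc
Lce3e: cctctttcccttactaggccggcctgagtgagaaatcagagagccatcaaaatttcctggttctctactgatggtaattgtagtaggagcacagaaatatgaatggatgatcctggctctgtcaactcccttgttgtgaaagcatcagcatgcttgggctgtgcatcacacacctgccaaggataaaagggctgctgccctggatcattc
Lce1c: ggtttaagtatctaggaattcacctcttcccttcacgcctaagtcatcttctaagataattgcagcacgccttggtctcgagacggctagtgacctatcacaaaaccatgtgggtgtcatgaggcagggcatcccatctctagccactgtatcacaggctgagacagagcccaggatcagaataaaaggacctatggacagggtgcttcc

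Motifs were searched in windows of 300 bases, 250 before and 50 after the start, on both strands. Of the 48 members, 41 had a window, and these had 43 windows in all. The AP-1 site was found in 7 of 7 Sprr2 windows and 2 of 2 Sprr1 windows, in 0 of 12 Lce1 windows and in 0 of 5 Lce3 windows, beside 7.81% of the 32851 windows in the table. In the Sprr2 genes it began 193 to 198 bases before the start, and Sprr2k had a second match that began 182 bases before it. The TATA box was in 7 of 7 Sprr2 windows, each time 29 bases before the start, and in 13.6% of all windows. The printed Sprr2d and Sprr2e stretches were identical in 91.9% of aligned columns, and Sprr2d and Sprr2k in 69.4%. The AP-1 site was also in 5 of 7 windows of the other precursors, namely those of Crnn, Flg2, Ivl, Lor and Rptn. The core of the antioxidant response element (TGACNNNGC), which can overlap an AP-1 match, was in 18.6% of member windows and 12.4% of all windows. By family, that core was in 1 of 7 Sprr2, 1 of 2 Sprr1, 2 of 5 Lce3 and 1 of 12 Lce1 windows. The grainyhead site (AACCNGTT) was in 4.65% of member windows and 2.09% of all windows. These are matches of letters and were not tested for binding.

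Single arrays stood out within some groups. Replicate 1 of wild type at 15 min was the highest of its group for 37 of 48 members and for 13 of 14 Sprr2 and Lce3 genes, and replicate 2 was the lowest for 39 of 48. Sprr1b had 11.10, 8.43 and 9.41 and Sprr2d 8.28, 6.13 and 6.41 on replicates 1, 2 and 3 of that group. In cub at 0 h, replicate 2 was the highest for 36 of 48 members and for 13 of 13 Lce1 genes. In wild type at 24 h, replicate 1 was the highest for 12 of 14 Sprr2 and Lce3 genes. Beside the comparisons below, calls and counts that moved without single arrays are given with their values.

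At 24 h the cornified envelope genes split by family. Both Sprr1 genes and most Sprr2 and Lce3 genes rose in both genotypes, up to 27.9-fold for Sprr1b in cub, while 5 Lce1 genes, loricrin, involucrin, periplakin and the filaggrin-like gene Flg2 fell in both. In cub, 20 members were higher and 20 lower than at 0 h, so 40 of 48 passed, where 46% of all genes tested passed (21.1% higher, 24.9% lower). In wild type, 20 members were higher and 12 lower, so 32 of 48 passed, beside 42.8% of all genes (20.5% higher, 22.4% lower). Calls rest on limma with Benjamini-Hochberg adjustment over all 19938 genes at a threshold of 0.05. Both genotypes shared 19 members that rose and 12 that fell, and 0 that passed in opposite directions. Across the 48 genes the changes of the 2 genotypes, which share no array, had a Pearson r of 0.97, as a description over genes that are not independent. In bulk tissue, fewer cells of a type and less RNA per cell cannot be told apart.

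**Figure D1:**
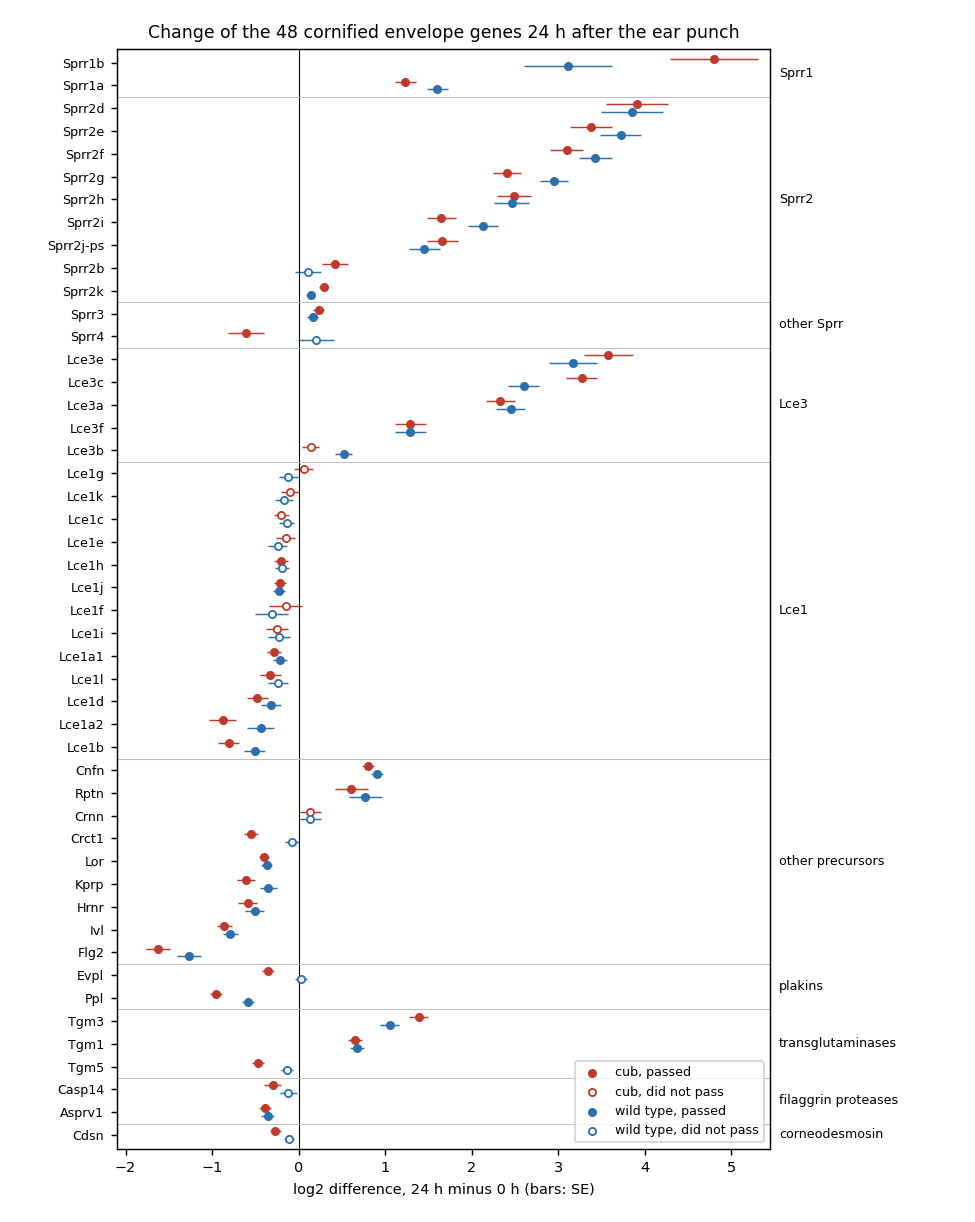
Log2 difference between 24 h and 0 h (x axis) for each of the 48 members, with cub (red) above wild type (blue) in each row; bars are standard errors, and filled points passed the threshold of 0.05. Sprr1, Sprr2 and most Lce3 genes lie right of 0, up to 4.80 for Sprr1b in cub, and Lce1 genes and Flg2 lie left of it or near it.

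The Sprr1 genes encode cross-linked bridges of the envelope that are also made in injured epithelia. Sprr1b had 12.77, 12.78 and 12.93 in cub at 24 h, against 7.57, 8.64 and 7.87 in cub at 0 h. In wild type it had 12.75, 12.67 and 12.58 at 24 h, against 8.21, 9.67 and 10.80 at 0 h. All 6 arrays at 24 h lay above all 6 at 0 h, and at 0 h the wild-type arrays were spread over more than 2 log2 units. The change was 4.80 ± 0.51 (SE) in cub (adjusted p = 7.58e-08) and 3.11 ± 0.51 in wild type (adjusted p = 3.32e-05). The difference between these changes, 1.69 with a 95% confidence interval of 0.18 to 3.21, did not pass (adjusted p = 0.376). Sprr1a had 12.84, 12.91 and 13.00 in cub at 24 h, against 11.32, 11.98 and 11.76 in cub at 0 h, and 12.77, 12.79 and 12.67 in wild type at 24 h, against 11.05, 11.02 and 11.35 in wild type at 0 h. It rose by 1.23 ± 0.12 in cub (adjusted p = 1.55e-08) and by 1.60 ± 0.12 in wild type (adjusted p = 4.16e-10).

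Of the 9 Sprr2 genes, 9 rose in cub and 8 in wild type, with median changes of 2.41 and 2.46, beside medians of 0.00 and -0.02 over all genes tested. Sprr2d had 10.56, 10.37 and 10.73 in cub at 24 h, against 6.23, 6.88 and 6.81 in cub at 0 h. In wild type it had 10.97, 10.51 and 10.39 at 24 h, against 6.21, 6.78 and 7.33 at 0 h. The 24 h and 0 h arrays did not overlap in either genotype. It rose by 3.91 ± 0.36 in cub (adjusted p = 8.83e-09) and by 3.85 ± 0.36 in wild type (adjusted p = 1.59e-08), about 15.1-fold and 14.4-fold.

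Sprr2e, whose printed promoter is the closest to that of Sprr2d, rose by 3.38 ± 0.24 in cub (adjusted p = 1.49e-10) and by 3.72 ± 0.24 in wild type (adjusted p = 5.56e-11). Sprr2f rose by 3.10 ± 0.19 in cub and 3.43 ± 0.19 in wild type (adjusted p = 1.48e-11 and 5.02e-12). Sprr2g, Sprr2h, Sprr2i and the copy annotated as a pseudogene, Sprr2j-ps, rose by 1.65 to 2.49 in cub and by 1.45 to 2.95 in wild type. At the low end, Sprr2k rose by 0.29 ± 0.05 in cub and 0.14 ± 0.05 in wild type (adjusted p = 3.89e-05 and 0.0237) and its window holds 2 AP-1 matches and the TATA box. Sprr2b changed by 0.42 ± 0.15 in cub (adjusted p = 0.0277) and by 0.11 ± 0.15 in wild type (adjusted p = 0.643). A row shared by 4 Sprr2 copies, Sprr2b among them, rose by 2.90 ± 0.58 in wild type (adjusted p = 0.000604 in limma over all 35556 rows). In cub that row changed by 1.25 ± 0.58 (adjusted p = 0.115). The Sprr2 copies are so alike that array probes may be shared between them, so which copy gave the signal is uncertain.

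The remaining Sprr genes did not follow the Sprr2 family. Sprr3, a gene known from oral and oesophageal epithelium, stayed between 4.76 and 5.21 on all 23 arrays. Its changes of 0.23 ± 0.06 in cub and 0.16 ± 0.06 in wild type were small but passed (adjusted p = 0.0045 and 0.0482). Sprr4 had 9.70, 9.57 and 9.83 in cub at 24 h, against 9.73, 10.97 and 10.23 in cub at 0 h, and it fell by 0.61 ± 0.21 on the log2 scale (adjusted p = 0.0181). Without the 0 h array at 10.97, replicate 2 of cub, the change was -0.28 (adjusted p = 0.197), and without cub replicate 2 at 24 h it was -0.55 (adjusted p = 0.0666). In wild type Sprr4 changed by 0.20 ± 0.21 (adjusted p = 0.505), and the difference between the genotypes did not pass (-0.81 ± 0.29, adjusted p = 0.246).

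The Lce3 genes encode late envelope proteins whose human counterparts are induced in psoriasis. All 5 had positive changes in both genotypes, and 4 passed in cub and 5 in wild type. Lce3c had 10.33, 10.43 and 10.50 in cub at 24 h, against 7.27, 7.19 and 6.98 in cub at 0 h. In wild type it had 10.76, 10.36 and 10.21 at 24 h, against 7.72, 7.79 and 8.01 at 0 h. The 24 h arrays of the 2 genotypes overlapped, and the 0 h arrays of cub all lay below those of wild type.

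Lce3c rose by 3.27 ± 0.18 in cub (adjusted p = 2.65e-12) and by 2.60 ± 0.18 in wild type (adjusted p = 1.54e-10). Lce3e rose by 3.58 ± 0.28 in cub (adjusted p = 5.56e-10) and by 3.17 ± 0.28 in wild type (adjusted p = 5.47e-09). Lce3a rose by 2.33 and 2.45, and Lce3f by 1.29 in both genotypes. Lce3b changed least, by 0.14 ± 0.10 in cub (adjusted p = 0.293) and 0.52 ± 0.10 in wild type (adjusted p = 0.000252). As with Sprr2, these are near copies whose probes may overlap.

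**Figure D2:**
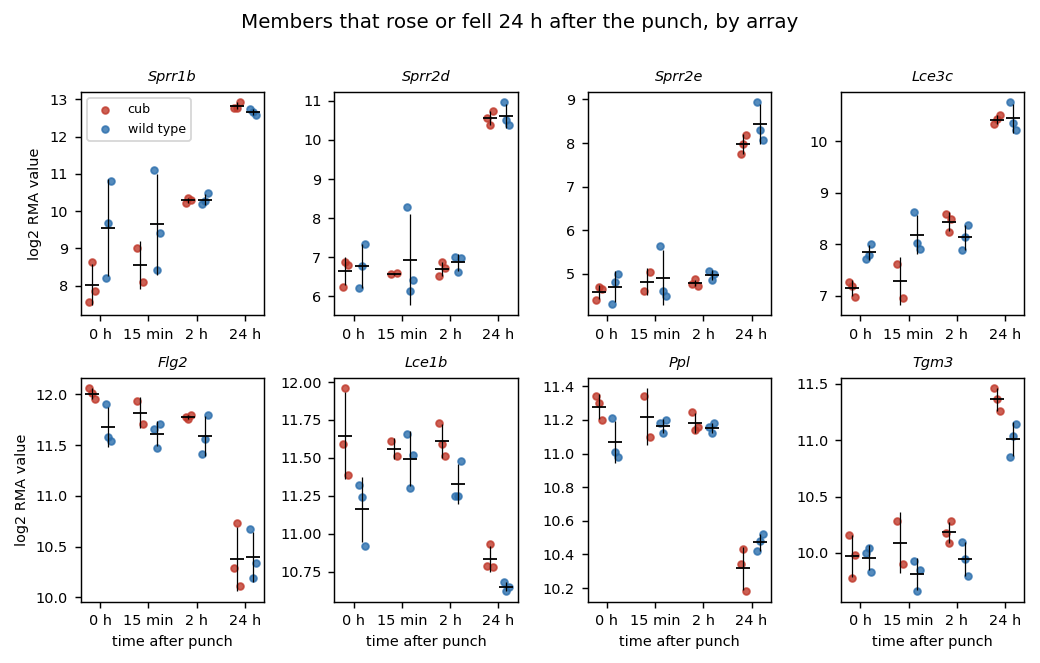
Log2 RMA value of 8 members on each array (y axis) by time after the punch (x axis), with cub (red) left of wild type (blue) at each time; black dashes and bars are group means and SDs of 3 arrays (2 in cub at 15 min). Sprr1b, Sprr2d, Sprr2e, Lce3c and Tgm3 are highest at 24 h, and Flg2, Lce1b and Ppl are lowest there.

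The 13 Lce1 genes, of the envelope of normal surface skin, moved the other way or not at all. Against 0 h, 7 of 13 fell in cub and 5 of 13 in wild type, and 0 rose in either. The largest falls were of Lce1a2, by 0.88 ± 0.16 on the log2 scale in cub (adjusted p = 9.32e-05) and 0.44 ± 0.16 in wild type (adjusted p = 0.0298), and of Lce1b. The wild-type Lce1a2 call was lost without replicate 1 or 2 at either time (adjusted p of 0.0505 to 0.139). Lce1b had 10.79, 10.93 and 10.78 in cub at 24 h, against 11.59, 11.96 and 11.39 in cub at 0 h. In wild type it had 10.68, 10.62 and 10.65 at 24 h, against 11.32, 11.24 and 10.92 at 0 h. Its groups did not overlap, and it fell by 0.81 ± 0.12 in cub (adjusted p = 6.82e-06) and by 0.51 ± 0.12 in wild type (adjusted p = 0.00137). Between rims, at 24 h against 15 min, 3 of 13 Lce1 genes were lower in cub and 13 of 13 in wild type, while 48.8% and 43.5% of all genes passed in either direction and 28.5% and 23.6% were lower. The wild-type 15 min arrays include replicate 1, the highest of its group for 11 of 13 Lce1 genes, and replicate 2, the lowest for 13 of 13. Lce1 genes moved together within groups, as given below, so these counts are not of independent genes. With any array left out, 40 to 42 of all 48 members still passed in wild type.

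Among the other precursors, Flg2, a filaggrin-like S100-fused protein, fell most. It had 10.29, 10.73 and 10.11 in cub at 24 h, against 12.06, 12.01 and 11.95 in cub at 0 h, and 10.67, 10.19 and 10.34 in wild type at 24 h, against 11.90, 11.58 and 11.54 in wild type at 0 h. It fell by 1.63 ± 0.14 on the log2 scale in cub (adjusted p = 2.13e-09) and by 1.27 ± 0.14 in wild type (adjusted p = 1.19e-07), 3.1-fold and 2.42-fold. Involucrin (Ivl), the early scaffold protein, fell by 0.86 ± 0.09 in cub (adjusted p = 1.2e-07) and by 0.79 ± 0.09 in wild type (adjusted p = 4.98e-07). Hornerin (Hrnr), another S100-fused protein, fell by 0.59 and 0.51, and Kprp, a proline-rich keratinocyte protein, by 0.61 and 0.35.

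Loricrin (Lor), the most abundant protein of the mature envelope, had 12.39, 12.49 and 12.41 in cub at 24 h, against 12.83, 12.89 and 12.77 in cub at 0 h. In wild type it had 12.20, 12.31 and 12.33 at 24 h, against 12.77, 12.62 and 12.56 at 0 h. The groups did not overlap in either genotype, and the fall was 0.40 ± 0.06 on the log2 scale in cub and 0.37 ± 0.06 in wild type (adjusted p = 8.52e-06 and 2.74e-05). Against this direction, Cnfn (cornifelin) rose by 0.80 ± 0.07 in cub and 0.90 ± 0.07 in wild type (adjusted p = 1.01e-08 and 2.35e-09). Repetin (Rptn) rose by 0.61 ± 0.19 and 0.77 ± 0.19 (adjusted p = 0.00968 and 0.00167). Crnn (cornulin) stayed between 4.99 and 5.74 on all arrays and did not pass in either genotype (adjusted p = 0.468 in cub and 0.466 in wild type).

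The plakins link the envelope to keratin filaments. Periplakin (Ppl) had 10.34, 10.43 and 10.18 in cub at 24 h, against 11.34, 11.30 and 11.20 in cub at 0 h, and 10.42, 10.48 and 10.52 in wild type at 24 h, against 11.21, 11.01 and 10.98 in wild type at 0 h. It fell by 0.96 ± 0.07 on the log2 scale in cub (adjusted p = 3.8e-10) and by 0.59 ± 0.07 in wild type (adjusted p = 7.05e-07). Envoplakin (Evpl), its partner, fell by 0.35 ± 0.07 in cub (adjusted p = 0.000209) and changed by 0.03 ± 0.07 in wild type (adjusted p = 0.79). The differences between the genotypes were -0.37 ± 0.10 for Ppl and -0.38 ± 0.10 for Evpl and did not pass (adjusted p = 0.0959 and 0.0655).

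The cross-linking enzymes diverged. Tgm3, the transglutaminase of late differentiation and hair, had 11.46, 11.36 and 11.26 in cub at 24 h, against 10.16, 9.78 and 9.98 in cub at 0 h. In wild type it had 10.85, 11.04 and 11.14 at 24 h, against values between 9.83 and 10.04 at 0 h. It rose by 1.39 ± 0.11 in cub (adjusted p = 8.93e-10) and 1.05 ± 0.11 in wild type (adjusted p = 7.75e-08). Tgm1, the membrane-bound enzyme of envelope assembly, rose by 0.65 ± 0.08 and 0.67 ± 0.08. Tgm5 fell by 0.47 ± 0.07 in cub (adjusted p = 1.23e-05) and changed by -0.14 ± 0.07 in wild type (adjusted p = 0.13). Asprv1, a protease that trims filaggrin, fell in both genotypes, by 0.39 and 0.36. Casp14, the caspase of cornification, and Cdsn, the adhesion protein of corneodesmosomes, fell in cub, by 0.30 ± 0.10 and 0.27 ± 0.06 (adjusted p = 0.0138 and 0.000333). In wild type their changes of -0.12 and -0.11 did not pass (adjusted p = 0.377 and 0.109).

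Along chromosome 3 the members that rose most formed 2 runs, as the plot of changes in gene order shows. The first ran from Sprr2d to Sprr1a, with the low Sprr2k and Sprr3 inside it, and the second held the Lce3 genes. Between them lay Sprr4, Ivl, the Lce1 genes and Kprp, none of which rose. Lor, first in the order, fell in both genotypes, as did Flg2 and Hrnr near the other end, while Rptn, the last, rose against 0 h.

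**Figure D3:**
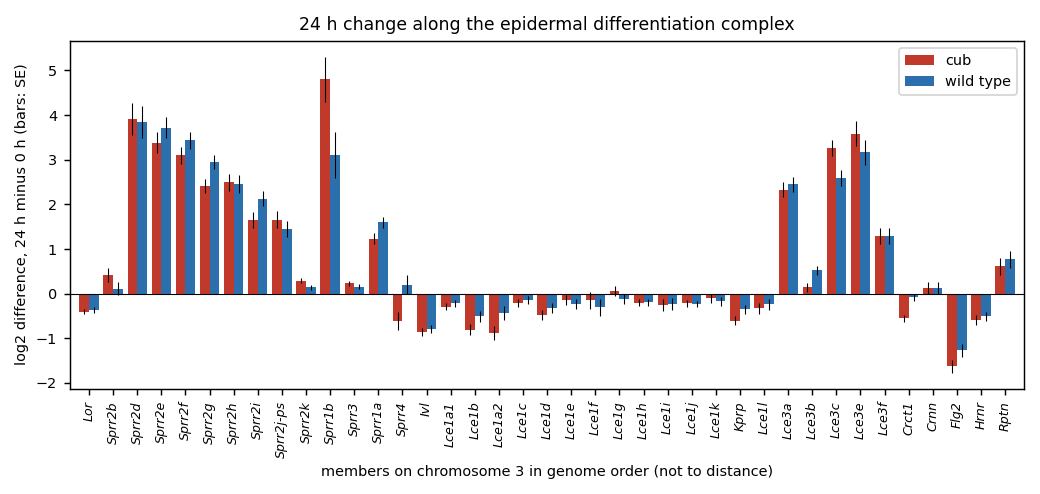
Log2 difference between 24 h and 0 h (y axis) for the 39 members on chromosome 3 in genome order (x axis, not to distance), with cub (red) left of wild type (blue); error bars are standard errors. Bars rise above 1 from Sprr2d to Sprr1a, apart from Sprr2k and Sprr3, and again in the Lce3 genes other than Lce3b.

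Between rims, both Sprr1 genes and most Sprr2 and Lce3 genes also rose in both genotypes, and Flg2, Ppl, Ivl and Lor fell in both. The Lce1 genes all fell in wild type, but most of them did not pass in cub, as given above. Rptn did not pass there in either genotype. At 24 h against 15 min, 19 members were higher and 16 lower in cub, beside 20.3% and 28.5% of all genes, and 18 were higher and 23 lower in wild type, beside 19.9% and 23.6%. Sprr2d rose by 3.97 ± 0.41 in cub (adjusted p = 4.98e-08) and by 3.68 ± 0.36 in wild type (adjusted p = 3e-08). Lce3e rose by 3.39 ± 0.31 and 2.94 ± 0.28 (adjusted p = 1.01e-08 and 1.65e-08). Flg2 fell by 1.44 ± 0.15 in cub and 1.21 ± 0.14 in wild type (adjusted p = 9.43e-08 and 2.29e-07). Ppl fell by 0.90 ± 0.08 in cub and 0.69 ± 0.07 in wild type.

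Over the 23 arrays the Sprr2, Lce3 and Lce1 families each held together in their levels. The median Pearson r over pairs of Sprr2 genes was 0.953, between Sprr2 and Lce3 genes 0.932, and between Sprr2 and Lce1 genes -0.647. These arrays share 8 groups, and with group means removed the medians were 0.526, 0.426 and 0.0109. Lce1 genes kept together within groups as well, with a median r of 0.871 over all arrays and 0.814 with group means removed. The other precursors did not keep together over all arrays, with pairwise r from -0.726 to 0.955 and a median of 0.219. Pairs of all Sprr genes went down to an r of -0.371. Of all members, Sprr2f and Sprr2g were the most alike (r = 0.996), and Flg2 was most like Ppl (r = 0.967).

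Other genes of the skin moved beside the members at 24 h. Of 5 wound-edge keratinocyte markers 5 rose in both genotypes, with list means of 12.06 in cub at 24 h, against 7.81 in cub at 0 h, and 11.91 in wild type at 24 h, against 7.70 in wild type at 0 h. The 3 with the largest changes were Krt16 (6.30 in cub, 6.10 in wild type), Krt6b (5.71 and 5.77) and Krt6a (4.69 and 4.55), keratins of activated epidermis. Neutrophil markers rose as well, 7 of 7 in both genotypes, with medians of 5.24 in cub and 4.71 in wild type. Of 7 suprabasal keratinocyte markers, 7 were lower in cub at 24 h, with a median of -0.30, and in wild type 1 was higher and 2 were lower. Sebaceous gland, skeletal muscle, cartilage and adipocyte markers had negative medians in both genotypes. Their part in the members' changes was not tested.

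Regulators and partner lists of cornification gave mixed counts at 24 h against 0 h. Of 27 regulators of late differentiation, 9 rose and 12 fell in cub, and 8 rose and 9 fell in wild type. The largest changes were of AP-1 subunit genes, with Fosl1 at 2.80 ± 0.14 in cub and 2.46 ± 0.14 in wild type, and Fos at 1.66 and 1.46. Both had already risen at 2 h, Fosl1 by 2.84 in cub and 3.13 in wild type, and Fos by 2.73 and 3.08. Of 16 genes of the cornified lipid envelope, 4 rose and 5 fell in cub and 6 rose and 6 fell in wild type, with the ceramidase gene Acer1 lowest, at -1.46 ± 0.06 and -1.04 ± 0.06. Of 16 genes of corneodesmosomes and desquamation, 5 rose and 6 fell in cub and 6 rose and 2 fell in wild type, led by the kallikrein proteases Klk6 (2.64 and 2.72) and Klk13 (2.57 and 2.09).

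Of 16 other genes of the epidermal differentiation complex, 10 rose and 2 fell in cub and 11 rose and 2 fell in wild type, with S100a8 at 5.72 in cub and 5.60 in wild type, a gene also counted among the neutrophil markers. Of 11 NRF2 targets, 9 rose and 1 fell in each genotype, with Slc7a11 at 4.93 ± 0.15 in cub and 3.87 ± 0.15 in wild type. The study's title concerns this antioxidant pathway. Slpi, at 3.49 in cub and 3.37 in wild type, is also counted among the wound-edge keratinocyte markers. NRF2 is also known to activate some Sprr2 genes in mouse epidermis. Its part in the members' changes was not tested here.

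Within 15 min of the punch, few members passed. In cub, 0 of 48 passed by limma, 1 reached an unadjusted p under 0.05, and 0.0251% of all genes passed (0.0201% higher, 0.00502% lower). In wild type, 1 passed (0.0351% of all genes), and 21 reached an unadjusted p under 0.05, all of them higher. The share of all genes at that unadjusted threshold was not counted, so no excess can be read from the 21. The member that passed was Cnfn, at 11.63, 11.35 and 11.39 in wild type at 15 min, against 10.97, 11.01 and 11.03 in wild type at 0 h. Its change was 0.45 ± 0.07 (adjusted p = 0.0222). Its call held in 6 of 13 alternatives and was lost without any 1 of the 0 h arrays of wild type and without replicate 1 or 3 at 15 min. The count was 2 without replicate 1 at 0 h, and 0 without replicate 2 or 3 at 0 h or replicate 1 or 3 at 15 min.

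At 2 h the shares of members called were near those of all genes. In cub, 4 members rose and 3 fell, so 7 of 48 passed, beside 11.9% of all genes (7.66% higher, 4.28% lower). In wild type, 5 rose and 0 fell, beside 7.97% of all genes (3.98% higher, 4% lower). At an unadjusted p under 0.05 there were 13 higher and 1 lower, without a count of all genes at that threshold. By adjusted p, the wild-type count was 3 without replicate 2 at 0 h or replicate 1 at 2 h, and 2 without replicate 3 at 0 h or replicate 2 or 3 at 2 h. The 2 members that rose in both genotypes were Cnfn and Sprr1a. Cnfn had 11.71, 11.80 and 11.70 in cub at 2 h, against 11.39, 11.47 and 11.25 in cub at 0 h, and 11.45, 11.44 and 11.52 in wild type at 2 h. Its changes were 0.37 ± 0.07 in cub and 0.47 ± 0.07 in wild type (adjusted p = 0.00208 and 0.000274). Sprr1a rose by 0.40 ± 0.12 in cub and 0.59 ± 0.12 in wild type (adjusted p = 0.0306 and 0.00256), and its cub call was lost without replicate 1 at 0 h or replicate 1 or 2 at 2 h (adjusted p of 0.0828 to 0.227).

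Sprr1b had 10.22, 10.35 and 10.31 in cub at 2 h, all above the cub arrays at 0 h, and 10.19, 10.26 and 10.48 in wild type at 2 h, within the range of wild type at 0 h. It rose in cub, by 2.27 ± 0.51 (adjusted p = 0.00493), and the wild-type change of 0.75 ± 0.51 did not pass (adjusted p = 0.483). Lce3c had 8.59, 8.23 and 8.48 in cub at 2 h, also all above cub at 0 h, and 7.89, 8.14 and 8.37 in wild type at 2 h. It rose in cub, by 1.29 ± 0.18 (adjusted p = 3.76e-05). The genotypes' changes were not shown to differ for either gene, with interactions of 1.52 ± 0.73 for Sprr1b (adjusted p = 0.488) and 0.99 ± 0.25 for Lce3c (adjusted p = 0.145).

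Ivl, Evpl and Tgm5 fell in cub at 2 h, by 0.44 ± 0.09, 0.28 ± 0.07 and 0.28 ± 0.07 on the log2 scale (adjusted p = 0.00345, 0.00848 and 0.0149). The Tgm5 call was lost without replicate 2 or 3 of cub at 0 h or replicate 2 at 2 h (adjusted p of 0.052 to 0.0842). In wild type the remaining calls were Crct1, Lce1h and Lce1j, each higher by 0.23 to 0.29 and each lost in 7 of 13 alternatives. By limma 0 of the 9 Sprr2 genes had passed by 2 h in either genotype, also at an unadjusted p under 0.05. Their medians were 0.07 in cub and 0.04 in wild type, whereas neutrophil markers already passed in 7 of 7. Sprr2b, Sprr2e, Sprr2f, Sprr2g, Sprr2i, Sprr2j-ps and Sprr2k had group means of only 3.92 to 5.14 at 2 h, where a small change may go unseen. Rows shared by 4 and by 2 Sprr2 copies changed by -0.04 and -0.16 in cub at 2 h. In wild type those rows changed by 1.32 and 1.36, without passing (adjusted p = 0.257 and 0.296 in limma over all 35556 rows). Of the regulators, 14 of 27 rose and 2 fell in cub, and 14 rose and 1 fell in wild type. The largest of these changes were of the AP-1 subunit genes Fosb (2.98 in cub, 3.20 in wild type), Fosl1 (2.84 and 3.13) and Fos (2.73 and 3.08).

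In unwounded ears, cub stood above wild type in 12 members and below it in 1, so 13 of 48 passed, beside 5.25% of all genes (3.33% higher, 1.93% lower). The median difference over the members was 0.19, against -0.01 over all genes. Single arrays moved the count, which was 3 without replicate 2 of cub at 0 h, 6 without replicate 2 of wild type and 5 without replicate 3 of wild type. Of 7 suprabasal keratinocyte markers, 3 were higher and 1 lower in cub at 0 h, with a median of 0.10. The mean over the list was 12.62 to 12.71 in cub arrays and 12.10 to 12.31 in wild-type arrays, with the largest differences in Krt77 (1.87 ± 0.20) and Krt1 (1.14 ± 0.12), while Krt2 was at -0.24 ± 0.06. Of 6 sebaceous gland markers, 2 were higher, Scd3 (2.48 ± 0.36) and Awat2 (1.39 ± 0.21), and 1 was lower, Elovl3 (-0.58 ± 0.15). Their list mean was 8.96 to 9.33 in cub arrays and 8.52 to 8.68 in wild-type arrays. Partner lists differed at 0 h as well. Of 16 genes of corneodesmosomes and desquamation, 5 were higher in cub and 0 lower, and of 16 of the cornified lipid envelope, 4 were higher and 1 lower. Of 27 regulators of late differentiation, 3 were higher and 0 lower, and of 11 NRF2 targets, 1 was higher and 4 lower. The part of these markers and lists in the members' differences was not tested.

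**Figure D4:**
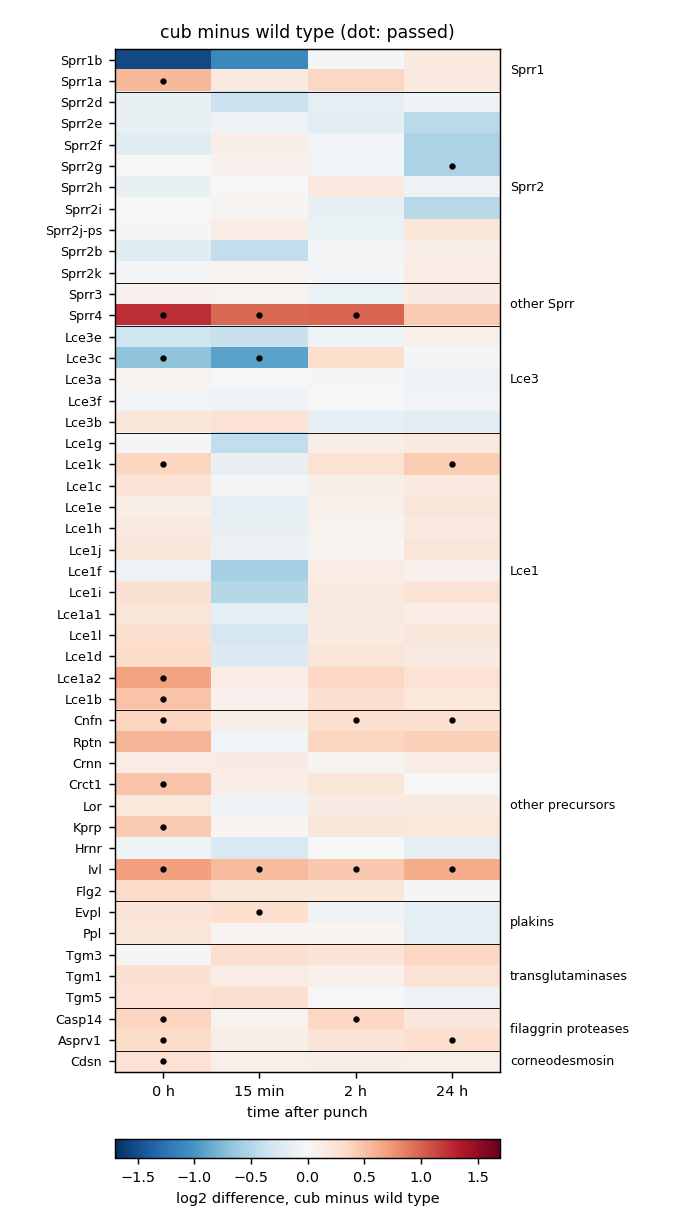
Log2 difference, cub minus wild type, for each of the 48 members (rows, by family) at 0 h, 15 min, 2 h and 24 h (columns), coloured from blue (lower in cub) to red (higher in cub); dots mark differences that passed the threshold of 0.05. Ivl is marked at all 4 times, and Sprr4 at 0 h, 15 min and 2 h.

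The member with the steadiest genotype difference was Ivl. At 0 h it had 11.06, 11.15 and 10.93 in cub, against 10.46, 10.18 and 10.40 in wild type, and at 15 min 11.15 and 10.98 in cub, against 10.61, 10.39 and 10.58 in wild type. At 2 h it had 10.66, 10.51 and 10.66 in cub, against 10.04, 10.10 and 10.30 in wild type, and at 24 h 10.39, 10.04 and 10.14 in cub, against 9.59, 9.50 and 9.58 in wild type. Every cub array lay above every wild-type array of the same time. The differences were 0.70, 0.54, 0.46 and 0.63 from 0 h to 24 h (adjusted p = 0.000205, 0.0111, 0.00597 and 0.000474). The 15 min call was lost in limma on only the arrays compared (adjusted p = 0.0716). Without replicate 3 of cub, which left 1 cub array at 15 min, the difference was 0.62. The difference averaged over the times was 0.58 ± 0.05 (adjusted p = 1.08e-07), about 1.5-fold. The difference held while the level fell in both genotypes: the 24 h change differed between them by -0.07, with a 95% confidence interval of -0.35 to 0.21.

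Sprr4 had the largest difference among the members called at 0 h, 15 min and 2 h. It had 9.73, 10.97 and 10.23 in cub at 0 h, against values between 8.95 and 9.23 in wild type at 0 h. At 15 min it had 10.63 and 10.79 in cub, against 9.79, 9.77 and 9.64 in wild type, and at 2 h 10.17, 10.41 and 9.81 in cub, against 9.28, 9.22 and 8.91 in wild type. The groups did not overlap at these times, and the cub arrays at 0 h were spread over more than 1 unit. The differences were 1.25 ± 0.21, 0.98 ± 0.23 and 0.99 ± 0.21 (adjusted p = 0.0013, 0.0253 and 0.00667). At 24 h the difference of 0.44 ± 0.21 did not pass (adjusted p = 0.248). The 15 min call was lost when any of replicates 1, 2 or 3 of wild type or replicate 3 of cub was left out (adjusted p of 0.0533 to 0.213).

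At 0 h and 15 min the member called lower in cub was Lce3c. It had 7.27, 7.19 and 6.98 in cub at 0 h, against 7.72, 7.79 and 8.01 in wild type at 0 h, which is lower by 0.69 ± 0.18 on the log2 scale (adjusted p = 0.0262). At 15 min Lce3c had 7.61 and 6.95 in cub, against 8.62, 8.03 and 7.91 in wild type. The groups did not overlap, and the log2 difference was -0.91 ± 0.20 (adjusted p = 0.0199). Its 0 h call was lost without replicate 2 or 3 of either genotype (adjusted p of 0.0757 to 0.121). Its 15 min call was lost without replicate 1 of wild type (-0.69, adjusted p = 0.0815) and in limma on only the arrays compared (adjusted p = 0.142). Without replicate 3 of cub, which left 1 cub array at 15 min, the difference was -0.58. At 24 h the difference was -0.02, with a 95% confidence interval of -0.40 to 0.35. For Sprr1b the 0 h difference of -1.53, with an interval of -2.60 to -0.46, did not pass (adjusted p = 0.0883), and the wild-type arrays had the wide spread given above.

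Sprr1a, Lce1a2, Crct1, Lce1b and Kprp were among the members higher in cub at 0 h. Sprr1a had 11.32, 11.98 and 11.76 in cub, against 11.05, 11.02 and 11.35 in wild type, so that the lowest cub array lay below the highest wild-type array. It differed by 0.55 ± 0.12 (adjusted p = 0.00954). Crct1, a cysteine-rich protein encoded in the same complex, had 12.37, 12.57 and 12.32 in cub, against 12.15, 11.85 and 11.80 in wild type, a difference of 0.49 ± 0.08 (adjusted p = 0.00164). The differences of Lce1a2, Lce1b and Kprp were 0.68 ± 0.16, 0.49 ± 0.12 and 0.44 ± 0.10 (adjusted p = 0.015, 0.0201 and 0.0142). Casp14, Cnfn, Lce1k, Asprv1 and Cdsn were higher by 0.24 to 0.37. Of the 13 calls at 0 h, those of Sprr4, Ivl and Crct1 remained without replicate 2 of cub, and all others, Lce3c included, were lost (adjusted p of 0.0544 to 0.256). Without replicate 3 of wild type the calls of Lce1a2, Lce1b, Kprp, Casp14, Lce1k, Asprv1, Cdsn and Lce3c were lost, and without replicate 2 of wild type those of Sprr1a, Lce1b, Kprp, Casp14, Lce1k, Cdsn and Lce3c. Without replicate 3 of cub the calls of Casp14 and Lce3c were lost. In limma on only the arrays compared, calls lost included those of Sprr1a, Lce1a2 and Lce1b (adjusted p = 0.0988, 0.0506 and 0.115). Of the 9 Sprr2 genes 0 passed by limma, also at an unadjusted p under 0.05, with differences from -0.21 to 0.01. Sprr2b, Sprr2e, Sprr2f, Sprr2g, Sprr2i, Sprr2j-ps and Sprr2k had group means of only 3.81 to 5.15 at 0 h. A difference at such low levels may go unseen. The rows shared by 4 and by 2 Sprr2 copies had group means of 8.63 to 11.15 at 0 h. Those rows were higher in cub by 1.18 ± 0.58 and 1.16 ± 0.64, without passing (adjusted p = 0.369 and 0.442 in limma over all 35556 rows).

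**Figure D5:**
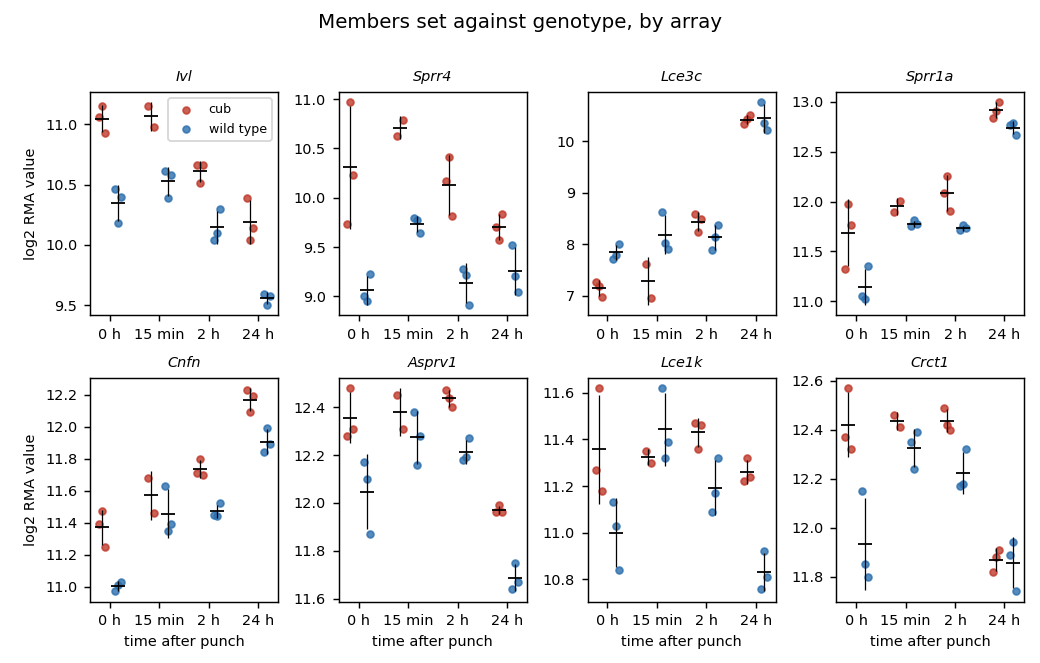
Log2 RMA value of 8 members on each array (y axis) by time after the punch (x axis), with cub (red) left of wild type (blue) at each time; black dashes and bars are group means and SDs of 3 arrays (2 in cub at 15 min). For Ivl every cub array lies above every wild-type array of the same time, and for Lce3c the cub arrays lie lower at 0 h and 15 min and overlap wild type at 24 h.

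The genotypes were also compared at each time after wounding. At 15 min, 3 were higher and 1 lower in cub, so 4 of 48 passed, beside 3.45% of all genes (1.57% higher, 1.88% lower). At 2 h 4 were higher and 0 lower, beside 4.41% (3.84% higher, 0.577% lower), and 0 were lower by limma also at an unadjusted p under 0.05. At 24 h 4 were higher and 1 lower, beside 5.68% (2.24% higher, 3.44% lower). The 15 min count was 0 without replicate 3 of cub at 15 min, 1 without replicate 1 of wild type and 2 without replicate 3 of wild type. At 2 h the count was 2 whichever array of that time was left out, and at 24 h it was 2 without replicate 1 of cub and 3 without replicate 1 of wild type.

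Markers of other cells differed between the genotypes at these times as well. At 15 min 5 of 10 hair follicle markers were higher in cub, among them Krt25 (2.25 ± 0.39) and Krt71 (1.60 ± 0.29), and the list mean was 7.01 to 7.11 in cub arrays and 6.39 to 6.50 in wild-type arrays. Of the suprabasal and of the sebaceous markers 2 each were higher in cub at 15 min and at 2 h. At 2 h 4 of 7 neutrophil markers were higher in cub, with list means of 6.89 to 7.24 in cub arrays and 6.16 to 6.71 in wild-type arrays. Of 6 fibroblast markers, 4 were higher in cub at 2 h, with list means of 11.32 to 11.52 in cub arrays and 10.83 to 11.08 in wild-type arrays. At 24 h 3 neutrophil and 3 fibroblast markers were higher in cub. Of the suprabasal markers, Krt77 (1.18 ± 0.20) and Krt1 (0.43 ± 0.12) were then higher in cub and Krt2 (-0.32 ± 0.06) lower. The basal marker Krt15 (-1.08 ± 0.12) and the sebaceous markers Mc5r (-0.77 ± 0.17) and Cidea (-0.49 ± 0.09) were lower. Single markers of other lists passed as well, with Krt17 (0.27) and Acta1 (0.34) higher and Dlx3 (-0.19) lower. Their part in the members' genotype differences was not tested.

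At 15 min the 4 members were Ivl, Sprr4, Lce3c and Evpl, the last at 0.28 ± 0.08 (adjusted p = 0.0447), a call that was lost without any 1 array of that time (adjusted p of 0.0585 to 0.184). At 2 h they were Ivl, Sprr4, Casp14 at 0.35 ± 0.10 (adjusted p = 0.0384) and Cnfn at 0.27 ± 0.07 (adjusted p = 0.045), and the last 2 calls were lost without any 1 array of that time. At 24 h Cnfn had 12.23, 12.09 and 12.19 in cub, against 11.84, 11.99 and 11.89 in wild type, a difference of 0.26 ± 0.07 (adjusted p = 0.0408). Lce1k had 11.22, 11.32 and 11.24 in cub at 24 h, against 10.76, 10.92 and 10.81 in wild type at 24 h, a difference of 0.43 ± 0.10 (adjusted p = 0.012). Asprv1 was higher by 0.28 ± 0.07 (adjusted p = 0.0242). The Cnfn call was lost without replicate 1 or 3 of either genotype, and that of Asprv1 without any 1 array of that time other than replicate 2 of wild type. Sprr2g had 6.52, 6.34 and 6.79 in cub at 24 h, against 7.56, 7.17 and 6.55 in wild type at 24 h, and its groups overlapped. The difference was -0.54 ± 0.16 (adjusted p = 0.0468), and without replicate 1 of wild type, the array at 7.56, it was -0.31 (adjusted p = 0.243). Its call was also lost without replicate 2 of wild type or replicate 1 or 2 of cub. The standard error rests on all 8 groups, while the SDs of Sprr2g at 24 h were 0.23 in cub and 0.51 in wild type. In limma on only the arrays compared, the 24 h calls of Sprr2g, Cnfn and Asprv1 were lost (adjusted p = 0.273, 0.105 and 0.0659).

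Averaged over the 4 times, 17 members were higher in cub and 1, Lce3c, was lower, so 18 of 48 passed, beside 18.3% of all genes (9.71% higher, 8.56% lower). The 6 largest positive differences were those of Sprr4 (0.92 ± 0.11, adjusted p = 6.8e-06), Ivl, Lce1a2 (0.35 ± 0.08), Rptn (0.33 ± 0.10), Sprr1a (0.31 ± 0.06) and Lce1b (0.25 ± 0.06), with Cnfn and Casp14 also at 0.25. All 3 transglutaminases were among the members that passed, at 0.11 to 0.22. Lce3c differed by -0.33 ± 0.09 (adjusted p = 0.0158), and by -0.25 (adjusted p = 0.0779) without replicate 3 of cub at 15 min.

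Whether wounding changed the members differently in the genotypes was tested by the interaction, the change in cub minus the change in wild type. By limma 0 of 48 members passed at 15 min, 2 h or 24 h, beside 0%, 0.13% and 1% of all genes. At an unadjusted p under 0.05 there were 17 members at 15 min, all negative, 6 at 2 h and 12 at 24 h. Shares of all genes at that unadjusted threshold were not counted, and the Lce1 genes among these members moved together within groups. No excess can therefore be read from these counts. By adjusted p, the count at 24 h was 1 or 2 without some single arrays. Crct1 and Ppl passed without replicate 1 of wild type at 0 h, Crct1 and Sprr2g without replicate 3 of wild type at 24 h, and Sprr2j-ps without replicate 1 of wild type at 24 h. In cub, Sprr4 passed without replicate 1 at 0 h, Crct1 without replicate 3 at 0 h and Ppl without replicate 2 at 24 h. The member nearest to the threshold was Crct1 at 24 h, at -0.47 ± 0.12 (adjusted p = 0.0523). It had 11.82, 11.88 and 11.91 in cub at 24 h, against 12.37, 12.57 and 12.32 in cub at 0 h, and 11.89, 11.94 and 11.74 in wild type at 24 h, against 12.15, 11.85 and 11.80 in wild type at 0 h. The 24 h groups of the genotypes overlapped, and only the cub groups were apart in time.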

How the data were processed

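The authors deposited log2 levels. RMA and Affymetrix Expression Console 1.1 are the tools that the submitters' processing notes list. No source used here gives the annotation, the genome build or the summarisation level. Of 35556 rows in the deposited table, 21789 had 1 gene symbol, 1621 several and 12146 none. A gene with several rows was represented by its row of highest mean, leaving 19938 genes. Array medians lay between 6.37 and 6.46.

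In limma 3.58.1 (R 4.3.3) 1 mean per group was fitted to all 23 arrays, with eBayes and two-sided tests, and p-values were adjusted by Benjamini-Hochberg within each of 16 comparisons over all genes. All adjusted p-values in the text are from this fit or its stated alternatives. In a simulated copy of the comparison of cub and wild type at 24 h, 88% of changes of 0.5 and 99% of changes of 1 (log2) were recovered, among 200 changed of 19938 genes. The changed genes were drawn at random from all genes, with noise independent between genes. These shares therefore do not hold for noisy members, such as Sprr1b with an SE of 0.51, and interactions were not simulated. The number of arrays limits the precision. The authors' own test was not run.

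The members and the gene and marker lists were chosen with earlier results of these data known. The members named are, per comparison, up to 6 with the largest called change in each direction; others were named after their values were seen, to describe a family. The alternatives were median-centring, quantile normalization, a filter keeping 13741 genes with a group mean of at least 6, the lowest-mean row per gene, a replicate block, a fit on only the arrays compared and each array left out; testing every row of the table was chosen after seeing the data.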

Additional observations from a re-analysis of the deposited data

Results flagged for a closer look

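Array rows annotated to several copies of a family were left out as rows, although some of their copies are members, and they also moved at 24 h. The row of 4 Sprr2 copies covers the member Sprr2b beside Sprr2a1, Sprr2a2 and Sprr2a3. The row of 6 Lce3 copies covers the members Lce3a, Lce3b, Lce3c, Lce3e and Lce3f beside Lce3d. A row shared by 4 Sprr2 copies averaged 12.40 in cub at 24 h, against 11.15 in cub at 0 h, a difference of 1.25 ± 0.58 (SE), and 12.87 in wild type at 24 h, against 9.97 in wild type at 0 h, a difference of 2.90 ± 0.58. In limma over all 35556 rows the wild-type change passed (adjusted p = 0.000604) and the cub change did not (adjusted p = 0.115), and the difference between the changes did not pass (-1.65, adjusted p = 0.577). A pair of rows with identical values, shared by 2 Sprr2 copies, differed by 1.57 ± 0.64 in cub (adjusted p = 0.0673) and by 3.30 ± 0.64 in wild type (adjusted p = 0.000407), and its interaction did not pass either (-1.73, adjusted p = 0.599). At 0 h both kinds of row had higher means in cub, by 1.18 and 1.16, without passing (adjusted p = 0.369 and 0.442). A row shared by 6 Lce3 copies rose by 2.37 ± 0.09 in cub and by 2.20 ± 0.09 in wild type (adjusted p = 8.6e-13 and 3.69e-12).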

How the results depend on the processing

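Of 88 named values, 65 kept their call in every alternative, 23 lost it in at least 1 and 0 reversed. No member had more than 1 row, so the lowest-mean rows left the members' values unchanged and replaced only those of other genes. The filter also left the values of the members it kept unchanged. These 2 alternatives therefore could move a call only through the other genes of the fit. Of the 48 named at 24 h against 0 h or 15 min, 45 kept it. With only the arrays compared, the members called were 5 for cub against wild type at 0 h, 1 at 15 min and 3 at 24 h. Wild type against its own 0 h then gave 2 at 15 min and 2 at 2 h. In cub against its own 0 h, that limma fit lost the calls of Sprr1a and Tgm5 at 2 h and of Sprr4 at 24 h (adjusted p = 0.167, 0.0634 and 0.0822). Median-centring and quantile normalization each gave 2 for cub against wild type at 2 h, although they moved no array's median by more than 0.05. With every row tested, which adds rows to the adjustment, the counts were 2 at 2 h and 3 at 24 h for cub against wild type, while wild type against 0 h had 0 at 15 min and 2 at 2 h. The filter and the lowest-mean rows each gave 2 at 15 min in wild type. Crct1 made the 24 h interaction count 1 under quantile normalization and 1 under the filter. The cause of these moves was not tested, beside the changed numbers of genes and arrays. Replicate numbers did not pair the arrays: same-numbered arrays had a mean correlation of deviations from group means of -0.0272 over 77 pairs, and different numbers 0.0137 over 154. With the replicate block the count at 24 h for cub against wild type was 3, and 5 named values lost their call. With 1 array left out, the members called ranged for cub against wild type from 3 to 16 at 0 h, 0 to 5 at 15 min, 2 to 2 at 2 h, 2 to 5 at 24 h and 16 to 21 averaged. Against 0 h they ranged in cub from 0 to 0 at 15 min, 6 to 8 at 2 h and 34 to 41 at 24 h, and in wild type from 0 to 2, 2 to 6 and 25 to 34. The 24 h interaction ranged from 0 to 2.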
